A study of Mus musculus with 12 samples.

Results

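The Myc, Max and Mxd network is a set of basic helix-loop-helix leucine zipper transcription factors that compete for Max and for the same DNA motif. Its transcripts were followed in mouse bone marrow-derived macrophages (BMDMs) by taking the table rows of 10 named genes, Myc, Mycl, Max, Mlx, Mxd1, Mxd4, Mxi1, Mnt, Mga and Tfap4, out of 24421 symbols. All 10 passed the filter on low counts that left 11468 genes for testing. Mycl and Tfap4 passed only through the groups in which they were high.

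Bone marrow of wild-type C57BL/6 mice was grown for 5 days in 100 ng/mL M-CSF, with a medium change on day 3. Cells of the same 3 mice (A, B and C) then received either the BET bromodomain inhibitor I-BET151 (iBET, 5.0 µM) or DMSO. Either was given with ovalbumin alone (Ova) or IgG-opsonised ovalbumin immune complexes (IC). The labels give the DMSO as 5% and state no DMSO percentage for the iBET cells, so whether the vehicle dose was matched is unknown. Stimulation lasted 4 hours in all 4 groups, with the ovalbumin pair named DMSO Ova and iBET Ova and the immune complex pair DMSO IC and iBET IC, and with 1 library per mouse in each, 12 in all. The labels describe drug and stimulus as simultaneous, whereas the methods of the study place the drug first, so the exact drug exposure is uncertain. Total RNA of whole cultures was sequenced, and in such bulk samples fewer cells expressing a gene and less RNA per cell cannot be told apart.

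Myc and its relative Mycl pair with Max, bind the E-box CACGTG and raise transcription of growth genes. Mxd1, Mxd4, Mxi1 and Mnt pair with Max at the same motif and recruit Sin3 co-repressors, and Mga carries Max into a Polycomb-type repressor complex. Mlx is a Max-like partner for some Mxd proteins, for Mnt and for the glucose-sensing Mondo proteins, while Tfap4 (AP4) is a Myc-induced factor that pairs with itself and binds the related box CAGCTG. In macrophages Myc is known as a gene induced by M-CSF, and Mxd1 as one that accumulates as myeloid cells stop dividing. BET proteins read acetylated histones at active promoters and enhancers.

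The libraries held 7549849 to 17387639 counts. The 45S ribosomal precursor Rn45s took 1.41% to 7.83% of them in 11 libraries but 77.4% in DMSO Ova of mouse A, where a limit of 3 counts, as a count of 0 allows, equals 1.54 normalised counts per 1e6 (CPM) against 0.16 to 0.359 CPM elsewhere. All 10 markers of the macrophage list were in the table and summed to 6800 to 9380 CPM, with a range of 6990 to 8180 in DMSO Ova, 7900 to 9380 in iBET Ova, 6800 to 7700 in DMSO IC and 8320 to 9150 in iBET IC. Dendritic cell markers summed to 0.513 to 1.55 CPM, lymphocyte markers to at most 0.336 CPM, mast cell, erythroid and progenitor markers to at most 2.98 CPM and stromal and endothelial markers to 0.479 to 1.87 CPM. Neutrophil markers, led by S100a9, summed to 5.65 to 35.1 CPM with wide and overlapping ranges in every group. The part of these differences in the results below was not tested.

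Because the network reads E-boxes, the promoters of its own genes were searched for CACGTG and CAGCTG. Both motifs are palindromes, so each match holds on both strands, and no window held both. RefSeq (GRCm38.p6) gave windows from 250 bases before to 50 bases after the start site for 8 of the 10 genes, 10 windows in all. Myc and Tfap4 had no window, so their promoters were not searched. CACGTG was found in 4 of them, those of Max, Mlx, Mnt and Mxd4, against 7.15% of 32817 windows of 300 bases across the genome. CAGCTG was found in 1, that of Mga, against 16.3% of all windows. The stretches below show the 4 genes with a CACGTG, with the motif in capitals, and the last 90 bases before the start sites of Mxd1 and Mycl, a pair whose transcripts moved in opposite directions with iBET and whose windows held neither box.
Max: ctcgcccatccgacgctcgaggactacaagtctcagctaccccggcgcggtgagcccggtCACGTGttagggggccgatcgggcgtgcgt
Mlx: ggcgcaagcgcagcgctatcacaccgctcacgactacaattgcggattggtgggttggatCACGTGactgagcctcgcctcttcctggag
Mnt: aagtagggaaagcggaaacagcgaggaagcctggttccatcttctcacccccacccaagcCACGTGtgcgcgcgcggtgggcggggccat
Mxd4: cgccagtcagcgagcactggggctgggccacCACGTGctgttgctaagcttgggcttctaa
Mxd1: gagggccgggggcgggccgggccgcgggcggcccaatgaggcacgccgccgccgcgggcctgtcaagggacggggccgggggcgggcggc
Mycl: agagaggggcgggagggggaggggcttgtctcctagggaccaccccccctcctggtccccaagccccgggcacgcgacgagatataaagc
On GRCm38.p6 these are Max chr12:76962222-76962311 (minus strand), Mlx chr11:101087190-101087279 (plus), Mnt chr11:74830741-74830830 (plus), Mxd4 chr5:34187900-34187960 (minus), Mxd1 chr6:86669160-86669249 (minus) and Mycl chr4:122995841-122995930 (plus). The first base of the motif lay 3 bases before the RefSeq start site in Max, 40 bases before it in Mlx, 123 bases in Mnt and 219 bases in Mxd4. A match is a description of the letters and not evidence of binding.

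In BMDMs given ovalbumin alone, iBET lowered Myc, Mycl and Tfap4 and raised Mxd1, Mxi1 and Mga, 6 of the 10 network genes, at an adjusted p under 0.05 (edgeR quasi-likelihood test, Benjamini-Hochberg adjustment over all genes tested). Across all genes tested, 31.3% were called in this comparison, 17.1% higher and 14.2% lower. With immune complexes, iBET lowered Myc, Mycl, Tfap4 and Mnt and raised Mxd1, 5 of 10 against 34.8% of all genes, of which 19% were higher and 15.8% lower. Over the 10 genes the median log2 fold change was 0.10 in Ova and 0.0010 in IC, against 0.019 and -0.0037 over all genes, with changes in both directions. Mycl and Tfap4 passed the filter on low counts only through DMSO libraries, where they were higher, so their calls are a description. Outside Mycl and Tfap4, the genes called were Myc, Mxd1, Mxi1 and Mga in Ova and Myc, Mxd1 and Mnt in IC.

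**Figure D1:**
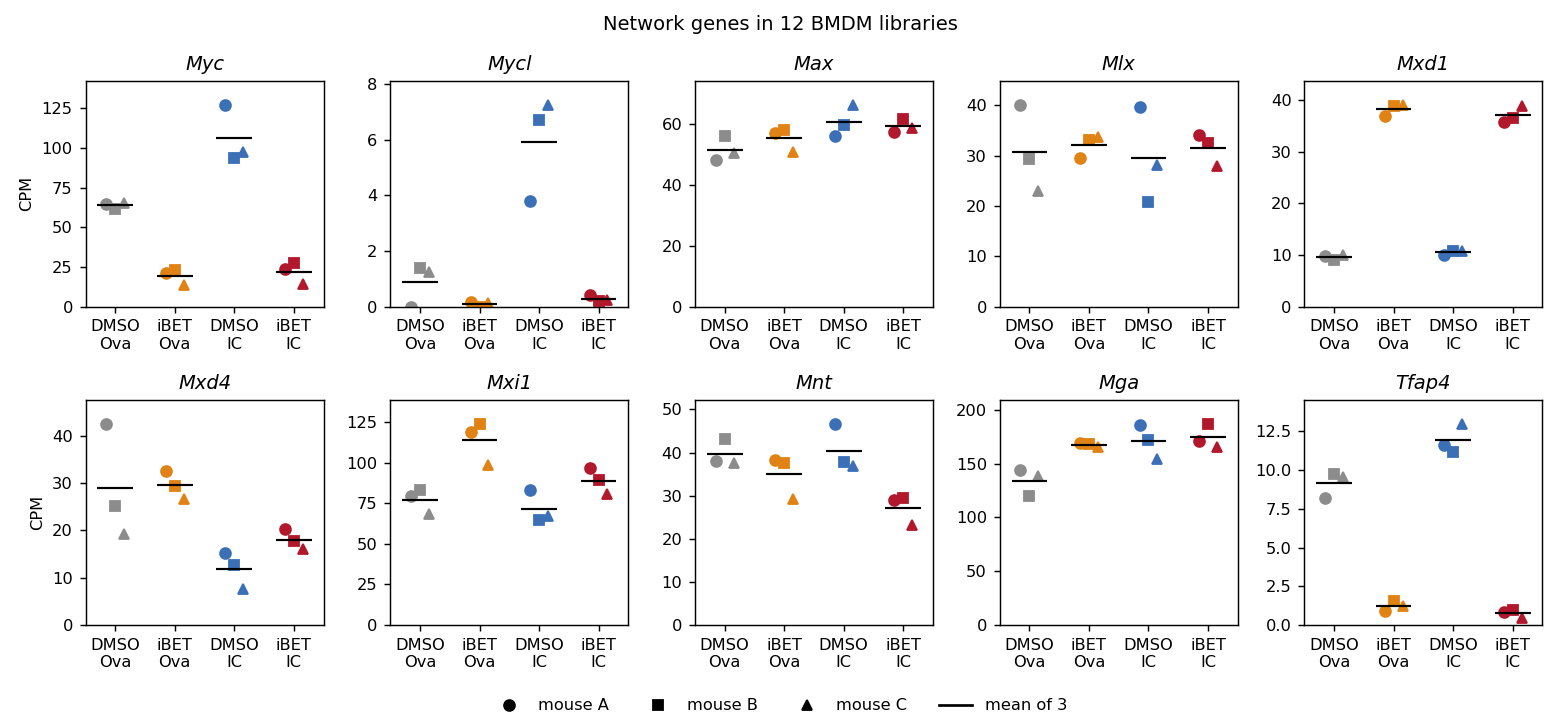
Normalised level in CPM (vertical axes, each from 0) of the 10 network genes in the 4 groups, with 1 point per library, the marker shape giving the mouse and the bar the mean of 3. Myc, Mycl and Tfap4 were low and Mxd1 was high under iBET with either stimulus, while Max lay between 48.2 and 66.1 CPM and Mlx between 20.8 and 40.0 CPM in all 12 libraries.

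Myc, the growth-driving member, lies on chromosome 15 (61985391 to 61990374, plus strand, GRCm38). In Ova it measured 64.7, 61.4 and 65.6 CPM in DMSO cells of mice A, B and C and 21.3, 23.1 and 13.5 CPM in the matching iBET cells. In IC it measured 127, 94 and 97.6 CPM in DMSO cells and 23.7, 27.4 and 14.5 CPM in iBET cells. Every iBET library lay below every DMSO library with either stimulus, and mouse C was the lowest under iBET both times. The log2 fold change was -1.72 (SE 0.24, adjusted p = 0.000235), a 3.3-fold lower level, in Ova and -2.27 (SE 0.235, adjusted p = 2.61e-05), or 4.83-fold lower, in IC. The call held in all 15 fits that left out 1 library or 1 mouse.

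Mycl, a Myc relative with the same partner, was close to the detection limit. Its counts in Ova were 0, 18 and 15 in DMSO cells and 2, 0 and 1 in iBET cells, and in IC they were 45, 61 and 76 in DMSO cells and 8, 2 and 2 in iBET cells. The 0 of DMSO Ova in mouse A allows up to 1.54 CPM and that of iBET Ova in mouse B up to 0.331 CPM, while the 3 DMSO IC libraries reached 3.78, 6.71 and 7.24 CPM. The summed iBET counts stood at 0.0796 of the DMSO level in Ova (95% exact interval 0.0156 to 0.254, counting error only) and at 0.0555 in IC (0.0281 to 0.0993). As a description, the fitted log2 fold change was -3.44 (SE 0.76, adjusted p = 0.00461) in Ova, where mouse A had 0 counts in its shallow DMSO library and did not fall, and -4.18 (SE 0.50, adjusted p = 5.43e-05) in IC, where all 3 mice fell. Leaving out mouse B (adjusted p = 0.115) or mouse C (adjusted p = 0.0648) ended the Ova call.

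Tfap4, the Myc-induced factor that pairs with itself, lies on chromosome 16 (4544661 to 4559854, minus strand, GRCm38) and showed a large proportional fall. In Ova it measured 8.21, 9.73 and 9.53 CPM in DMSO cells and 0.925, 1.54 and 1.24 CPM in iBET cells. In IC it measured 11.6, 11.2 and 13 CPM in DMSO cells and 0.853, 0.968 and 0.479 CPM in iBET cells. The groups lay far apart with either stimulus. As Tfap4 passed the filter on low counts only through DMSO libraries, its calls are a description. The fitted log2 fold change was -2.93 (SE 0.24, adjusted p = 4.05e-06), or 7.63-fold lower, in Ova and -3.90 (SE 0.24, adjusted p = 4.6e-07), or 14.9-fold lower, in IC. The iBET libraries held 4 to 16 Tfap4 counts each, and the ratio of summed counts was 0.126 (95% exact interval 0.0865 to 0.178) in Ova and 0.0669 (0.0445 to 0.0972) in IC.

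Mxd1, the Mxd repressor tied to differentiation, lies on chromosome 6 (86647042 to 86669161, minus strand, GRCm38) and moved the other way. In Ova it measured 9.75, 9.04 and 9.94 CPM in DMSO cells and 36.9, 38.9 and 39 CPM in iBET cells. In IC it measured 9.92, 10.8 and 10.7 CPM in DMSO cells and 35.8, 36.5 and 38.9 CPM in iBET cells. The spread within a group was small beside the gap between DMSO and iBET. Its log2 fold change was 2.00 (SE 0.11, adjusted p = 2.36e-07), a 4.01-fold rise, in Ova and 1.83 (SE 0.10, adjusted p = 3.02e-07), a 3.54-fold rise, in IC. Calls for Mxd1, and for Tfap4 as a description, held in all 15 fits that left out 1 library or 1 mouse.

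Mxi1, the Mxd2 repressor, measured 79.6, 83.1 and 68.2 CPM in DMSO Ova and 119, 124 and 98.4 CPM in iBET Ova. The groups did not overlap, and the log2 fold change was 0.57 (SE 0.13, adjusted p = 0.00625), lost without mouse B (adjusted p = 0.0891). In IC it measured 83.1, 64.4 and 67.3 CPM in DMSO cells and 96.5, 89.2 and 80.7 CPM in iBET cells, which overlapped, and the log2 fold change of 0.31 (SE 0.13) did not pass (adjusted p = 0.0834). A block for mouse brought the IC difference past the threshold (adjusted p = 0.0251).

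Mnt, the broadly expressed Max-binding repressor, measured 38, 43.1 and 37.6 CPM in DMSO Ova and 38.2, 37.6 and 29.2 CPM in iBET Ova, overlapping groups with a log2 fold change of -0.18 (SE 0.15, adjusted p = 0.379). In IC it measured 46.7, 37.7 and 36.8 CPM in DMSO cells and 29, 29.5 and 23.2 CPM in iBET cells. Here all iBET libraries lay below all DMSO libraries and the log2 fold change was -0.56 (SE 0.14, adjusted p = 0.00907), lost without mouse B (adjusted p = 0.0658). Whether the drug effect differed between the stimuli was tested by the interaction, which gave a log2 difference of -0.38 (SE 0.20, adjusted p = 1).

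Mga, a Max-bound scaffold protein, measured 144, 120 and 138 CPM in DMSO Ova and 169, 168 and 165 CPM in iBET Ova. The groups were separate but close, with a log2 fold change of 0.32 (SE 0.10, adjusted p = 0.0302). This call was lost when either DMSO Ova of mouse B (adjusted p = 0.121) or of mouse C (adjusted p = 0.057) was left out, when any 1 of the 3 iBET Ova libraries was left out (adjusted p = 0.0545 to 0.0763), and when all libraries of mouse B (adjusted p = 0.296) or of mouse C (adjusted p = 0.118) were. In IC, Mga measured 154 to 186 CPM in DMSO cells and 165 to 187 CPM in iBET cells, a log2 fold change of 0.03 (SE 0.10, adjusted p = 0.825).

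Mxd4, another Mxd repressor, measured 42.6, 25.1 and 19.3 CPM in DMSO Ova and 32.6, 29.4 and 26.7 CPM in iBET Ova, with overlapping groups and a log2 fold change of 0.11 (SE 0.28, adjusted p = 0.806). In IC it measured 15.3, 12.6 and 7.62 CPM in DMSO cells and 20.3, 17.8 and 16 CPM in iBET cells. Each iBET library there was above each DMSO library, and the log2 fold change of 0.61 (SE 0.28, adjusted p = 0.114) did not pass. It did with mouse as a block (adjusted p = 0.0115), without DMSO Ova of mouse A (adjusted p = 0.0441) and without all libraries of mouse A (adjusted p = 0.0293). Reads of Mxd4 could also come from an overlapping opposite-strand gene that shares 514 exon bases with it, since use of strand in the counting is not given in the sources used here, and Mxi1 and Mlx likewise share 194 and 385 exon bases with opposite-strand genes.

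Max and Mlx, the shared partners, did not pass in either comparison. Max measured 48.2 to 56 CPM in DMSO Ova, 50.8 to 57.9 CPM in iBET Ova, 55.9 to 66.1 CPM in DMSO IC and 57.4 to 61.6 CPM in iBET IC. Its log2 fold change with iBET was 0.09 (95% interval -0.13 to 0.31) in Ova and -0.03 (-0.25 to 0.18) in IC, so a change as large as that of Mxd1 lay far outside both intervals. Mlx spread more, over 23 to 40.0 CPM in DMSO Ova, 29.6 to 33.6 CPM in iBET Ova, 20.8 to 39.6 CPM in DMSO IC and 27.9 to 34 CPM in iBET IC. The log2 fold change of Mlx was 0.11 (95% interval -0.39 to 0.60) in Ova and 0.09 (-0.39 to 0.57) in IC.

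**Figure D2:**
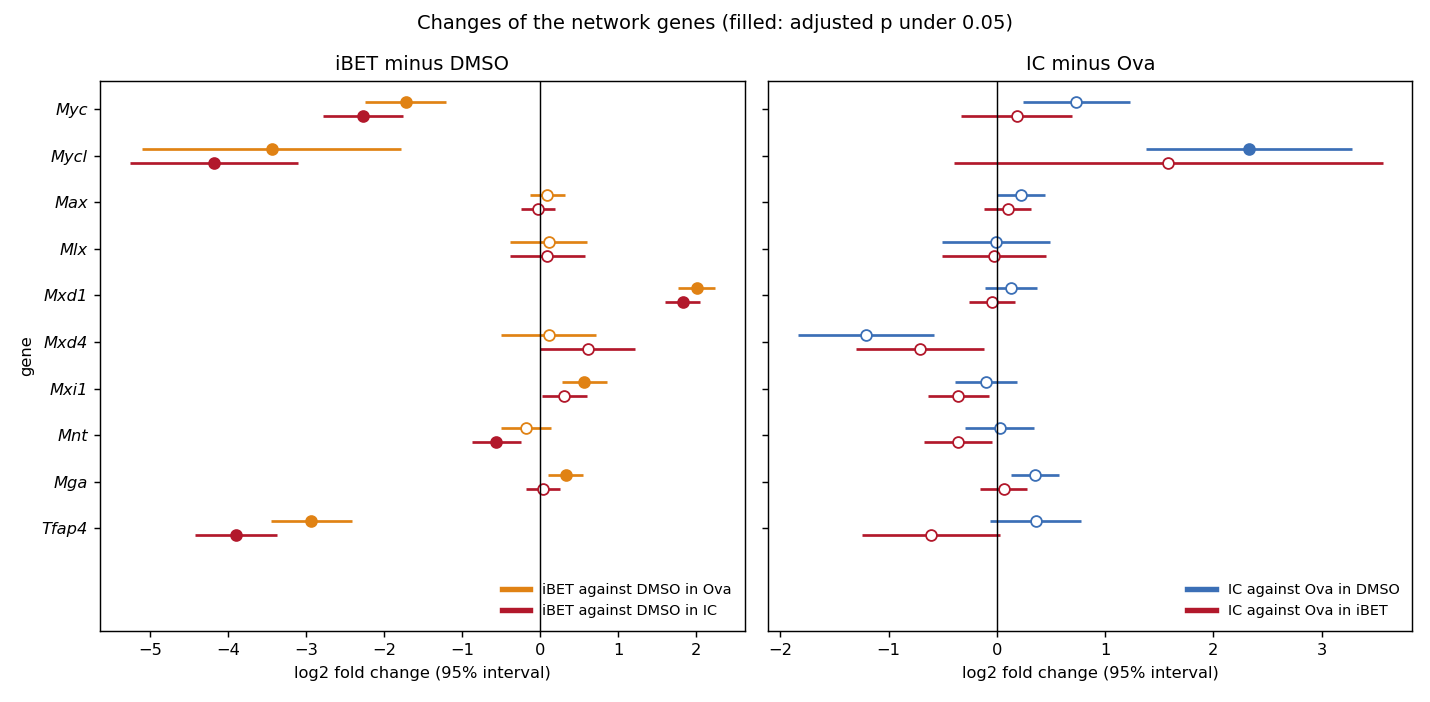
Log2 fold changes (horizontal axes) of the 10 network genes with 95% intervals, for iBET minus DMSO on the left and IC minus Ova on the right, with filled points for an adjusted p under 0.05. Intervals of Myc, Mycl and Tfap4 lay below 0 and those of Mxd1 above 0 on the left, and 1 point, Mycl in DMSO cells, was filled on the right.

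The effect of Fc receptor engagement itself was read by setting IC against Ova within each drug arm. In DMSO cells 0 of 9 network genes other than Mycl passed, where 1.22% of all genes were called, 0.732% higher and 0.488% lower. Mycl was past the threshold upward, which is a description, since DMSO IC was the group where it was highest and took it through the filter. Mycl went from 0, 18 and 15 counts to 45, 61 and 76 counts in mice A, B and C, so every IC library was above every Ova library. The ratio of summed counts was 4.74 (95% exact interval 3.26 to 7.1) and the log2 fold change was 2.33 (SE 0.44, adjusted p = 0.0256). The call was lost without DMSO Ova of mouse B (adjusted p = 0.117) or mouse C (adjusted p = 0.103), without DMSO IC of mouse B (adjusted p = 0.0864) or mouse C (adjusted p = 0.0933), and without mouse B (adjusted p = 0.644) or mouse C (adjusted p = 0.372) altogether.

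Other network genes differed between IC and Ova in DMSO cells without passing. Myc went from 64.7, 61.4 and 65.6 CPM to 127, 94 and 97.6 CPM, higher in 3 of 3 mice, with a log2 fold change of 0.73 (SE 0.23, adjusted p = 0.173). With mouse as a block it passed in DESeq2 (0.70, adjusted p = 0.0132) and not in edgeR (0.71, adjusted p = 0.0668). Mxd4 went from 42.6, 25.1 and 19.3 CPM to 15.3, 12.6 and 7.62 CPM, lower in 3 of 3 mice, with a log2 fold change of -1.21 (SE 0.29, adjusted p = 0.0753). The 2 Mxd4 groups did not overlap, and with mouse as a block the fall passed (log2 fold change -1.23, adjusted p = 0.00271). It also passed without DMSO Ova of mouse C (adjusted p = 0.0476) or without mouse A (adjusted p = 0.0363). Mga, at 120 to 144 CPM in Ova and 154 to 186 CPM in IC, gave 0.35 (SE 0.10, adjusted p = 0.148). Max, Mxd1, Mxi1, Mnt, Mlx and Tfap4 had log2 fold changes between -0.10 and 0.36, none past the threshold.

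Under iBET, 0 of 10 network genes passed in IC against Ova with edgeR, where 0.349% of all genes were called, 0.314% higher and 0.0349% lower. DESeq2 without a block also called 0, and 3 genes, Mxd4, Mxi1 and Mnt, had an unadjusted p under 0.05 in edgeR. Mxd4 went from 32.6, 29.4 and 26.7 CPM in Ova to 20.3, 17.8 and 16 CPM in IC, a log2 fold change of -0.71 (SE 0.27, adjusted p = 0.555), with no overlap and a fall in each mouse. Mxi1 went from 98.4 to 124 CPM down to 80.7 to 96.5 CPM (log2 fold change -0.36, SE 0.13, adjusted p = 0.497), and Mnt gave -0.36 (SE 0.14, adjusted p = 0.573). Myc was at 13.5 to 23.1 CPM in Ova and 14.5 to 27.4 CPM in IC, overlapping groups with a log2 fold change of 0.18 (SE 0.23, adjusted p = 0.922).

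Whether iBET altered the IC response was tested directly by the interaction, in which the IC effect of DMSO cells is subtracted from that of iBET cells. By edgeR 0 of 10 network genes and 0 of 11468 genes passed, and 1 network gene and 292 of all genes had an unadjusted p under 0.05. The gene was Tfap4, with a log2 difference of -0.96 (SE 0.35, adjusted p = 1). For Myc the log2 difference was -0.55 (95% interval -1.26 to 0.16, adjusted p = 1), so the larger response in DMSO cells was not distinguished from that in iBET cells.

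Counting ratios within a library is free of scaling between libraries and put the activator and its antagonist side by side. Myc had 6.63, 6.8 and 6.6 reads per Mxd1 read in DMSO Ova and 0.576, 0.595 and 0.347 in iBET Ova, so Mxd1 reads outnumbered Myc reads in every iBET library. With IC the ratio was 12.8, 8.72 and 9.15 in DMSO cells and 0.661, 0.751 and 0.372 in iBET cells. Per kilobase of exon, which corrects for the longer Mxd1 transcript, the mean ratio was 17.4 ± 0.275 (SD, n = 3) in DMSO Ova, 1.32 ± 0.36 in iBET Ova, 26.6 ± 5.79 in DMSO IC and 1.55 ± 0.514 in iBET IC. These ratios depend on the length used. Per kilobase of the longest transcript, mean levels of Myc and Mxd1 were 8.26 and 8.2 CPM in iBET Ova and 9.35 and 7.95 CPM in iBET IC. Myc reads per Max read went from 1.25 ± 0.131 to 0.347 ± 0.0709 in Ova and from 1.77 ± 0.429 to 0.368 ± 0.106 in IC. Mxd1 reads per Max read went from 0.187 ± 0.0223 to 0.696 ± 0.0629 in Ova and from 0.173 ± 0.0105 to 0.627 ± 0.036 in IC. The DMSO and iBET ranges did not overlap for any of these 3 ratios with either stimulus.

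**Figure D3:**
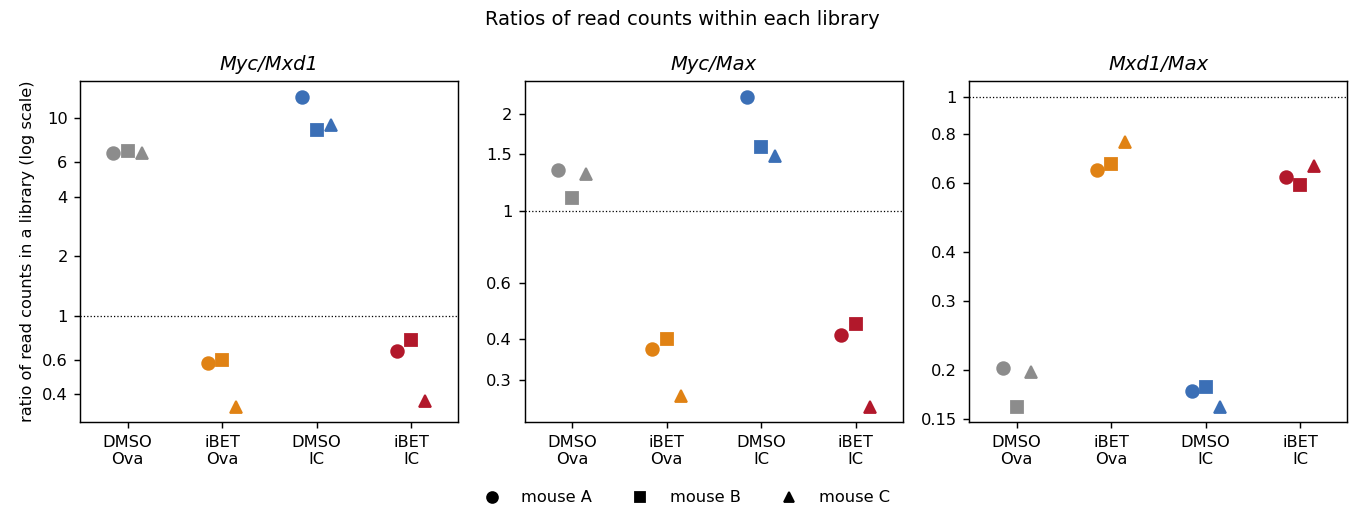
Ratio of read counts within each library (vertical axes, log scale) for Myc to Mxd1, Myc to Max and Mxd1 to Max in the 4 groups, with 1 point per mouse and a dotted line at a ratio of 1. All 6 DMSO libraries lay above 1 and all 6 iBET libraries below 1 for Myc to Mxd1 and for Myc to Max.

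Levels were compared between genes as CPM per kilobase of exon. In DMSO Ova, Myc was the highest at 23.5 ± 0.803 (SD, n = 3), followed by Mlx at 15.4, Max at 14.3, Mxi1 at 11.3, Mga at 8.74, Mnt at 8.55, Tfap4 at 3.60, Mxd4 at 3.42, Mxd1 at 1.35 and Mycl at 0.216. Neighbours with overlapping libraries were Mlx and Max, Mga and Mnt, and Tfap4 and Mxd4. In iBET Ova, Mxi1 (16.7), Mlx (16.1) and Max (15.3) stood together at the top, and Myc fell to the sixth place at 7.11 ± 1.88, overlapping Mnt at 7.56 and Mxd1 at 5.41. In DMSO IC, Myc stood first at 39.1 ± 6.6 and did not overlap Max at 16.8, while Mxd1 (1.48), Mycl (1.46) and Mxd4 (1.40) overlapped at the bottom. In iBET IC, Max (16.5) and Mlx (15.8) overlapped at the top. Mxi1 (13) overlapped Mlx and Mga (11.4) but lay below Max in every library. Myc (8.04), Mnt (5.89) and Mxd1 (5.24) overlapped in the middle. Tfap4 fell below every network gene but Mycl, to 0.486 per kilobase in iBET Ova and 0.302 in iBET IC. Using the longest transcript as the length instead raised Max in DMSO Ova from 14.3 to 26.5 per kilobase and left Myc, at 27.3, first by its mean alone, with overlapping libraries. With that length Max had the highest mean in iBET Ova, at 28.4 beside 22.6 for Mxi1 and 16.3 for Mlx. The same held in iBET IC, at 30.5 beside 17.6 for Mxi1 and 16 for Mlx.

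Within the 5 repressors, the per-kilobase level of Mxd1 made up 4.08% ± 0.42 of their sum in DMSO Ova and 12.3% ± 1.23 in iBET Ova, and 4.5% ± 0.676 and 14% ± 1.5 in DMSO IC and iBET IC (SD, n = 3). The share of Mnt went from 25.7% ± 2.41 to 17.1% ± 1.22 in Ova and from 26.2% ± 0.604 to 15.6% ± 1.11 in IC. Neither share overlapped between drug arms. In Ova the level of Mnt itself did not pass (adjusted p = 0.379) and its mean per kilobase was 8.55 in DMSO and 7.56 in iBET cells, beside 1.35 and 5.41 for Mxd1 and 11.3 and 16.7 for Mxi1. Mxi1 and Mga remained the largest parts, with mean shares of 31.6% to 37.8% and of 24.9% to 33.5% over the 4 groups.

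**Figure D4:**
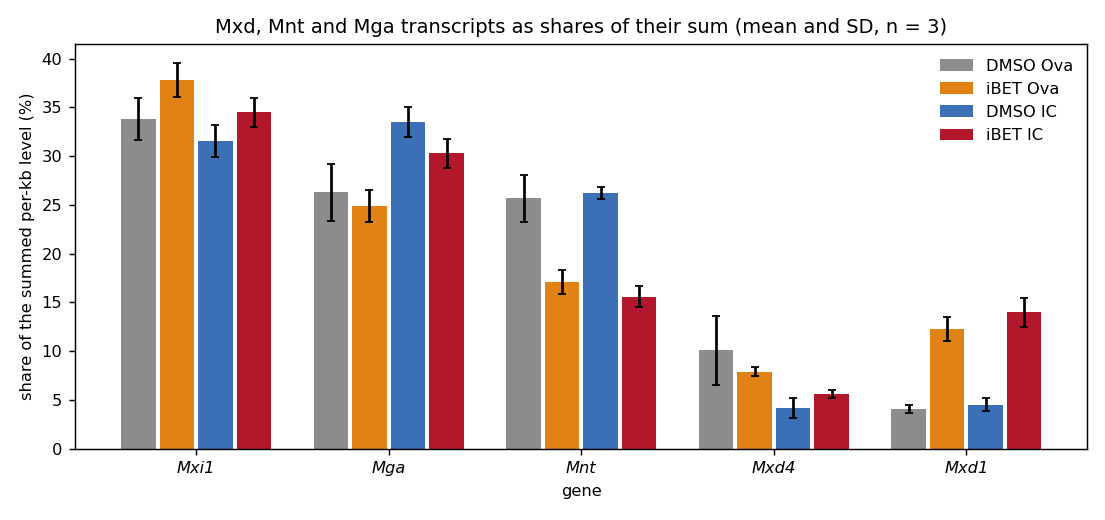
Share of each of the 5 repressor genes in their summed level per kilobase (vertical axis, %), with bars for the mean of 3 mice and error bars for 1 SD. Mxd1 rose from 4.08% to 12.3% in Ova and from 4.5% to 14% in IC, and the share of Mnt was lower under iBET with both stimuli.

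Proteins that work with the network were read from a list of 24 genes, of which 22 were tested and Mycn and Mlxipl were too low. With iBET in Ova 10 of 22 passed, 8 higher and 2 lower, and in IC 13 of 22, 8 higher and 5 lower, with list medians of 0.26 and 0.11. Of all genes 31.3% and 34.8% were called, with medians of 0.019 and -0.0037. Trrap, the scaffold that brings acetyltransferases to Myc, rose from 111.7 ± 13.5 to 240.0 ± 16.1 CPM (SD, n = 3) in Ova (log2 fold change 1.10, SE 0.11, adjusted p = 1.94e-05) and by 1.07 (SE 0.11, adjusted p = 1.95e-05) in IC. Pim1, a kinase that stabilises Myc, rose by 1.10 (SE 0.15, adjusted p = 0.000158) in Ova and 0.89 (SE 0.14, adjusted p = 0.000391) in IC. Mycbp2, a large ubiquitin ligase named for binding Myc, and Gsk3b, a kinase that marks Myc for degradation, passed upward with both stimuli, with log2 fold changes of 0.83 and 0.49 in Ova and 0.72 and 0.62 in IC. The Sin3 co-repressors Sin3a and Sin3b, the Mondo gene Mlxip and the deubiquitinase gene Usp28 were the other 4 higher genes in each stimulus. Ruvbl1, a helicase gene of the Myc coactivator complex, and Pvt1, the noncoding neighbour of Myc, fell in both, and Zbtb17 (Miz1), Kat2a and Ruvbl2 fell in IC. Huwe1, a ubiquitin ligase gene, passed upward with mouse as a block, in Ova (adjusted p = 0.0423) and in IC (adjusted p = 0.0318). Without mouse B the Ova count was 4.

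In the IC comparison within DMSO cells, where 1.22% of all genes were called, 1 of the 22 passed. This was Pim1 (log2 fold change 0.74, SE 0.15, adjusted p = 0.0336), higher in 3 of 3 mice. It no longer passed in 10 of the 15 fits with 1 library or mouse left out, holding without iBET Ova of mouse A or C, DMSO IC of mouse A, iBET IC of mouse C or all of mouse A. In iBET cells 0 of 22 passed, where 0.349% of all genes were called.

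Genes that Myc is known to activate gave a mixed picture. With iBET 10 of 25 passed in Ova, 6 higher and 4 lower, and 10 of 25 in IC, 2 higher and 8 lower, with medians of 0.0051 and -0.17 and shares of 40% in each beside the 31.3% and 34.8% of all genes. Odc1, the first enzyme of polyamine synthesis, rose from 291.4 ± 39.5 to 602.5 ± 73.0 CPM in Ova (log2 fold change 1.05, SE 0.13, adjusted p = 0.000109) and by 1.09 (SE 0.13, adjusted p = 7.3e-05) in IC. Srm, a later enzyme of the same pathway, fell by 0.72 on the log2 scale in Ova and by 1.32 (SE 0.20, adjusted p = 0.000278) in IC. Dkc1, the pseudouridine synthase of nucleolar and telomerase RNPs, fell by 1.11 (SE 0.18, adjusted p = 0.00065) in Ova and by 1.73 (SE 0.18, adjusted p = 2.02e-05) in IC. Ccnd2, a D-type cyclin, rose by 0.80 in Ova (SE 0.19, adjusted p = 0.00616), a call lost without mouse A (adjusted p = 0.113) or mouse B (adjusted p = 0.0644). The Ova count fell to 5, 5, 5 and 4 without the libraries DMSO Ova of mouse B, DMSO Ova of mouse C, iBET Ova of mouse B and iBET Ova of mouse C, to 2 without mouse B and to 5 without mouse C, and the IC count fell to 5 without mouse C. With mouse as a block Cad (adjusted p = 0.00718), Tfrc (adjusted p = 0.0485) and Bop1 (adjusted p = 0.0365) also passed upward in IC, which made 5 higher and 8 lower.

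Of 8 genes that Myc is known to repress, 5 were higher and 1 lower with iBET in Ova, and 4 were higher and 1 lower in IC, with medians of 0.58 and 0.41. Over all genes 17.1% were higher and 14.2% lower in Ova and 19% and 15.8% in IC, with medians of 0.019 and -0.0037. Cdkn2b, which encodes the cyclin-dependent kinase inhibitor p15, measured 1.13 ± 0.363 CPM in DMSO Ova and 5.05 ± 0.879 CPM in iBET Ova. It was low in DMSO cells and may have passed the filter on low counts only through iBET libraries, so its calls are a description. The fitted log2 fold change was 2.10 (SE 0.30, adjusted p = 0.000214) in Ova and 2.81 (SE 0.29, adjusted p = 1.82e-05) in IC. Cdkn1a, which encodes the inhibitor p21, rose by 0.93 (SE 0.18, adjusted p = 0.00227) and 1.19 (SE 0.18, adjusted p = 0.00037). Gadd45b, a stress gene, rose by 1.10 in Ova (adjusted p = 0.00155, and 0.0847 without mouse B) and passed upward in IC with mouse as a block (adjusted p = 0.0203). Cdkn1b, the p27 gene, rose by 0.67 in IC (adjusted p = 0.00677, but 0.187 without mouse B and 0.0611 without mouse C). Klf6 was the gene that fell in each stimulus. In Ova the count dropped to 3 without DMSO Ova of mouse B, iBET Ova of mouse B, iBET Ova of mouse C or all of mouse C, and to 2 without mouse B. In IC it dropped to 3 without DMSO IC of mouse B, iBET IC of mouse B or iBET IC of mouse C, and to 2 without mouse B or mouse C.

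Of 5 genes read by Mlx with the Mondo proteins, 4 were tested and Pklr was not. Txnip, a brake on glucose uptake, rose with iBET by 1.42 (SE 0.13, adjusted p = 8.13e-06) in Ova and 1.32 (SE 0.13, adjusted p = 1.13e-05) in IC. Arrdc4, its arrestin relative and the companion Mlx target, had log2 fold changes of -0.04 (adjusted p = 0.868) and -0.37 (adjusted p = 0.0581, against 0.031 once mouse was a block). Pfkfb3, a glycolysis regulator, rose in both, by 0.65 (adjusted p = 0.00221, and 0.067 without mouse C) and 0.53 (adjusted p = 0.00547, but 0.0542 without mouse A and 0.0647 without mouse C). Hk2, a hexokinase gene, fell in IC by 0.71 (SE 0.11, adjusted p = 0.000377). The counts were 2 of 4 in Ova and 3 of 4 in IC, with medians of 0.30 and 0.081, against 31.3% and 34.8% of all genes and medians of 0.019 and -0.0037.

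With IC, Txnip fell by 0.90 (SE 0.13, adjusted p = 0.00464) in DMSO cells and by 1.00 (SE 0.13, adjusted p = 0.0038) in iBET cells, in 3 of 3 mice each. Both Txnip calls ended when mouse B (adjusted p = 0.4 and 0.718) or mouse C (adjusted p = 0.152 and 0.0903) was left out. Hk2 rose in DMSO cells by 0.57 (SE 0.11, adjusted p = 0.0325), but passed in no more than 4 of the 15 fits with 1 library or mouse left out, those without DMSO Ova of mouse A, iBET Ova of mouse C, DMSO IC of mouse B or all of mouse A. Among genes called in the linked lists, opposite-strand genes share exon bases with Txnip, Pim1, Cdkn1a, Ccnd2, Bhlhe40, Bhlhe41, Usf2, Arntl, Dkc1 and Hspd1. They also do so with Bop1, Ndrg1, Umps, Nop56, Ruvbl2, Sin3a, Mlxip, Zbtb17 and Pvt1. Reads of all these genes are uncertain in the same sense as those of Mxd4. Nme1, Pvt1, Nop56, Usf1, Pa2g4 and Nop58 share 418, 341, 328, 200, 90 and 84 exon bases with same-strand genes. In the lists of Myc-activated genes, Myc-repressed genes and bHLH-Zip relatives, 0 passed in either IC comparison with edgeR. Of all genes, 1.22% were called in DMSO cells and 0.349% in iBET cells. With mouse as a block, Odc1 passed in DMSO cells (log2 fold change 0.55, adjusted p = 0.00712) and in iBET cells (0.59, adjusted p = 0.00713), Rrs1 (adjusted p = 0.048) and Gadd45b (adjusted p = 0.0318) passed upward and Usf1 (adjusted p = 0.0396) downward in DMSO cells, and Arrdc4 passed downward in iBET cells (adjusted p = 0.0379).

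Related bHLH-Zip and E-box binding factors outside the network were read from a list of 12. With iBET 8 of 12 passed in each stimulus, 2 higher and 6 lower, with medians of -0.42 in Ova and -0.38 in IC, where 31.3% and 34.8% of all genes were called with medians of 0.019 and -0.0037. Mitf, a regulator of lysosomal and melanocyte genes, went from 120.4 ± 19.7 to 43.2 ± 4.15 CPM in Ova, a log2 fold change of -1.47 (SE 0.12, adjusted p = 4.19e-06), and fell by 1.63 (SE 0.12, adjusted p = 1.47e-06) in IC. Its relative Tfec, found in macrophages, fell by 2.39 (SE 0.34, adjusted p = 0.000236) in Ova, and Bhlhe41, a circadian repressor, by 1.06 (SE 0.13, adjusted p = 6.29e-05). Tfeb, Usf2 and Bhlhe40 also passed downward in both stimuli. Arntl, the Clock partner Bmal1, was the factor higher in both, by 1.11 in IC (SE 0.15, adjusted p = 0.000152). With mouse as a block Tfe3 also passed upward in IC (adjusted p = 0.0276).

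**Figure D5:**
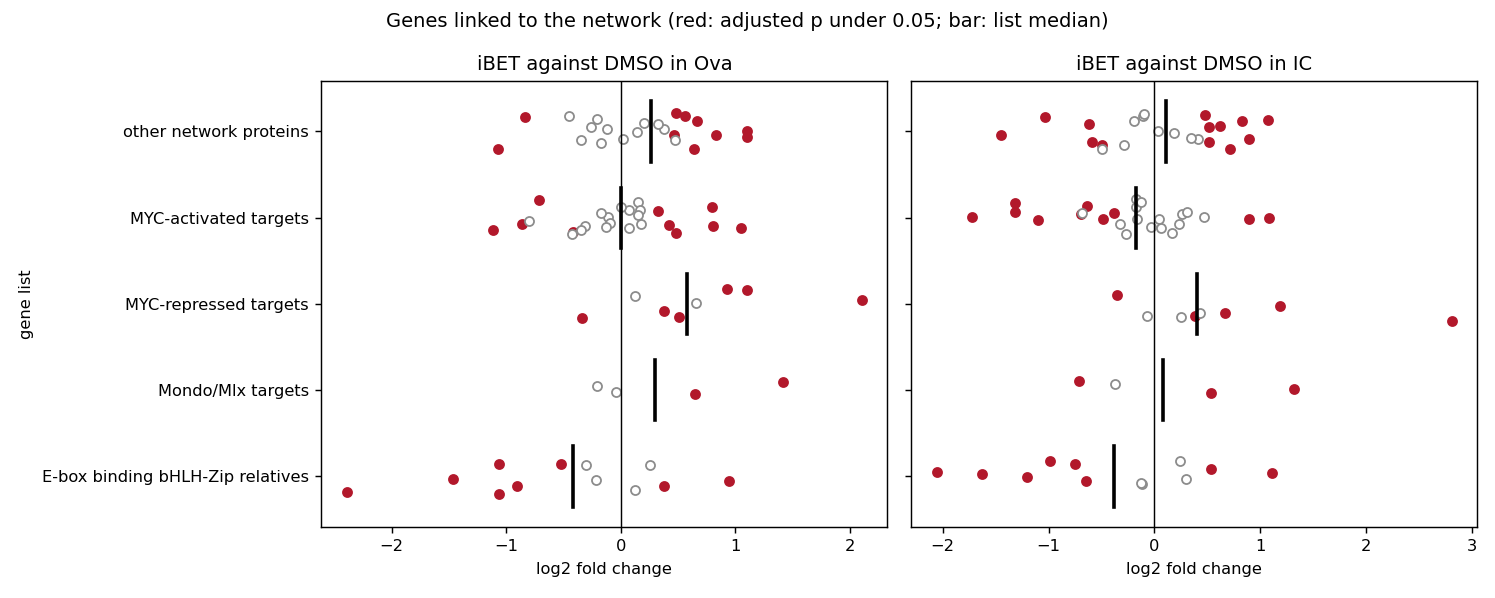
Log2 fold change with iBET (horizontal axes) of the tested genes in 5 lists linked to the network, in Ova on the left and IC on the right, with red points for an adjusted p under 0.05 and a bar at each list median. Myc-activated genes lay on both sides of 0 in both panels, while the medians of Myc-repressed genes were 0.58 and 0.41.

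The transcripts whose level was most like that of Myc over the 12 libraries, by Pearson correlation of log2 CPM, were Pcdh7 (r = 0.992), Wdr3 (0.979), P2ry6 (0.974), Tnfsf14 (0.974) and Flrt3 (0.973). For Tfap4 they were Nhlrc2 (r = 0.994), Zfp111 (0.990), Bri3bp (0.985), A630001G21Rik (0.983) and Dhx30 (0.980). The 12 points fall into a DMSO and an iBET cluster, so these values mainly describe the drug difference. Flrt3, with a log2 fold change of -2.75 in Ova and -3.47 in IC, moved further than Myc, while Wdr3, at -0.52 and -0.72, moved less. All 10 genes had negative log2 fold changes with iBET in both stimuli, which follows from choosing them by likeness to Myc and Tfap4 in these same libraries.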

How the data were processed

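Bulk RNA-seq of 12 BMDM libraries (4 groups, 3 mice) was analysed. Per the study's methods and the submitters' processing notes, total RNA libraries were made with the SMARTer stranded total RNA pico kit, read ends were trimmed with Trim Galore, reads were aligned to mm10 with HISAT2 and the authors deposited read counts per gene made with featureCounts. The strand setting, annotation and tool versions are not given in the sources used here. The second deposited table, a normalised signal, equals the counts divided by DESeq2 size factors to a relative gap of 4.89e-15, and all of its values (100%) came out whole after multiplication by the size factor (tolerance 1e-6).

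Counts of all 12 libraries were fitted with edgeR (4.0.16, R 4.3.3): filterByExpr with a minimum count of 10, TMM scaling, 1 term per group, robust quasi-likelihood tests of 5 contrasts and Benjamini-Hochberg adjustment over 11468 genes, called at 0.05. SEs were taken from the size of the log2 fold change and the square root of its F statistic. CPM values are TMM-normalised, changes per mouse use a prior count of 2, and levels per kilobase use the union of exons in GENCODE vM21. DESeq2 (1.42.0), limma (3.58.1) and sva (3.50.0) served as alternatives. The edgeR fit without a block was tested on simulated data, with recovery scored for iBET against DMSO in Ova. The other fits were not tested on simulated data.

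Mouse identity in the labels pairs the groups. Deviations from group means correlated between libraries of the same mouse with a median r of 0.263 (18 pairs, -0.0725 to 0.542), against -0.134 for different mice (36 pairs). Deviations sum to 0 within a group, so a positive value for the same mouse brings a negative value for different mice. The gap between these medians is therefore not an independent comparison. The main fit had no block, DESeq2 and sva, which the study used, being alternatives, and blocked values stand where they change a call. Replicates are 3 mice, and their number and the depth of DMSO Ova mouse A limit precision.

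The members and gene lists were chosen with earlier results of these data known. Named genes are all 10 members, up to 3 genes per list and iBET contrast with the smallest adjusted p, network proteins and repressed targets called with IC, Txnip and Arrdc4, and the 5 genes most correlated with Myc and with Tfap4. Other list genes were named after their values were seen. Intervals of count ratios cover counting error only.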

Additional observations from a re-analysis of the deposited data

Results flagged for a closer look

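Among the network members and the named genes of the linked lists, 3 had IC responses of opposite sign in the drug arms in every mouse. The share of all genes tested with this pattern was not counted, so whether 3 is more than a background rate was not tested. In each of the 3 the interaction did not pass (edgeR quasi-likelihood test with Benjamini-Hochberg adjustment). For Tfap4 the log2 fold change was 0.36 in DMSO cells and -0.61 in iBET cells, a difference of -0.96 (adjusted p = 1), from 4 to 16 counts per iBET library. For Mxd1 it was 0.13 in DMSO cells and -0.0462 in iBET cells (-0.00303 in mouse C), a difference of -0.18 (adjusted p = 1). For Dkc1 it was 0.50 in DMSO cells and -0.11 in iBET cells, a difference of -0.61 (adjusted p = 1). Groups of 3 libraries were too small for a test of single outlying libraries.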

How the results depend on the processing

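With iBET, the falls of Myc and Tfap4 and the rise of Mxd1 kept direction and call in both stimuli. This held in every alternative that gave a value, and the filter of at least 10 counts in every library removed Tfap4 and Mycl. The Tfap4 calls are a description here too. Scaling with DESeq2 size factors moved the median of all genes by at most 0.038 (log2) in any contrast. Depth limited Mycl and Tfap4, whose iBET libraries held 0 to 8 and 4 to 16 counts.

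Counts of called network genes moved as follows. For iBET in IC the count was 3 with at least 10 counts in every library, a filter that left 8 members. For IC in DMSO cells it was 0 at adjusted p under 0.01, with that same filter, with the groups fitted alone and with limma on the normalised signal, 2 with DESeq2, with mouse as a replicate block in edgeR and with voom sample weights, and 3 with 1 surrogate variable and with the replicate block in DESeq2. For IC in iBET cells it was 1 with the replicate block in DESeq2 and with the groups alone. The range over fits that left out 1 library or mouse was 3 to 6 for iBET in Ova, the 3 without mouse B, and 0 to 2 for IC in DMSO cells.

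Calls of single members changed in the following cases, and the cause was not tested. With iBET in Ova, Mycl lost its call with limma on the normalised signal (log2 fold change -1.74) and Mga with the groups alone (0.28). With iBET in IC, Mxd4 gained one with the replicate block in edgeR (0.63) and DESeq2 (0.60), the surrogate variable (0.78) and voom weights (0.82), as did Mxi1 (0.31, 0.28, 0.35 and 0.40). With IC in DMSO cells, Mxd4 gained one with DESeq2 (-1.24), the replicate block in edgeR (-1.23) and DESeq2 (-1.23), the surrogate variable (-1.05) and voom weights (-1.14), Myc with the replicate block in DESeq2 (0.70) and Mga with the surrogate variable (0.38), while Mycl lost it with the groups alone (2.33) and with limma on the normalised signal (3.29). With IC in iBET cells, Mxd4 gained one with the replicate block in DESeq2 (-0.72) and the groups alone (-0.70). The replicate block in edgeR changed no other call of a member.

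Signs turned for the following values. Mnt with IC in DMSO cells was -0.00834 with the replicate block in DESeq2 and -0.0807 with voom weights, and Mlx with the surrogate variable was 0.0884 in DMSO and 0.0406 in iBET cells. The Mlx interaction was 0.00337 with DESeq2, 0.00879 with its replicate block, 0.0486 with limma on the normalised signal, 0.00241 without Rn45s and 0.0600 with voom weights. Over the fits that left out 1 library or mouse, log2 fold changes with iBET in Ova ranged from -4.31 to -2.73 for Mycl, 0.48 to 0.66 for Mxi1, 0.25 to 0.36 for Mga, -0.13 to 0.37 for Mxd4 and -0.11 to 0.32 for Mlx. With iBET in IC they ranged from -0.67 to -0.46 for Mnt, 0.37 to 0.81 for Mxd4, 0.24 to 0.40 for Mxi1, -0.12 to 0.0455 for Max, -0.0362 to 0.11 for Mga and -0.13 to 0.34 for Mlx. With IC in DMSO cells they ranged from 2.14 to 2.57 for Mycl, -1.45 to -0.93 for Mxd4, -0.22 to 0.0348 for Mxi1, -0.11 to 0.14 for Mnt and -0.27 to 0.19 for Mlx. With IC in iBET cells they were -0.0142 to 0.40 for Myc and -0.11 to 0.0892 for Mlx, and the Mlx interaction was -0.21 to 0.25. Arrdc4 with iBET in Ova ranged from -0.14 to 0.0350. With the longest transcript as length, 23 of 40 levels per kilobase moved by more than 1 SD.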
